A study of Mus musculus with 33 samples.

Results

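Late neuroblasts and immature granule neurons are the young neurons of the hippocampal dentate gyrus that have stopped dividing and have begun to grow axons and dendrites. They were taken here from single-cell RNA sequencing of the mouse neurogenic niche by a rule on transcripts. A cell of the filtered table of 1536 cells, in which every cell holds 1407 to 1498 transcripts, was a member where the transcripts of Sox11, Dcx, Igfbpl1, Neurod1, Tubb3, Stmn2 and Sox4 summed to 5 or more. Its sum over Calb2, Bhlhe22, Neurod2, Prdm8 and Stmn2 (the late sum) had also to exceed that over Eomes, Mfap4, Insm1, Ccnd2 and Igfbpl1 (the early sum). This gave 105 of 1536 cells (6.84%). Cells past the same neuroblast sum whose early sum was the larger are called early neuroblasts (128 cells), and 26 further cells had equal sums and belong to neither class.

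All cells came from hippocampal tissue of C57BL/6 mice, apart from the reporter mice named below, and were sequenced by SORT-seq, a plate method that counts messenger RNAs from their 3' ends by unique molecular identifiers (UMIs). The niche group holds 31 libraries from 5 numbered experiments, in which live cells without antibody signal for GluR1 (the product of Gria1) and for Cd24 (the product of Cd24a) were sorted. One further library came from mice older than 12 months (old), and one held GFP-positive cells of Nestin-GFP mice, a reporter driven by regulatory sequence of the progenitor gene Nes (NestinGFP). The labels give no age for the niche and reporter mice and no number of mice per experiment. With the experiment as a block, the p-values measure how the difference between classes varies over experiments, by a spread that edgeR shares over genes. That variation may be in part technical. The sort removes cells that carry Cd24 on their surface, a marker of neuroblasts, so members of the niche and old libraries are the neuroblasts that this gate let through. For the NestinGFP library, which gave 23 of the 105 members, the labels describe a selection for GFP and repeat the same protocol.

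In the adult dentate gyrus, stem cells give rise to dividing intermediate progenitors that carry the transcription factor Eomes, and these become neuroblasts and then granule neurons. Calb2 (calretinin) marks a passing stage after the last division, and the transcription factors Neurod2, Bhlhe22 and Prdm8 act in young excitatory neurons. Over this step a cell leaves the cell cycle, lays down an axon along the mossy fibre path and begins to make synaptic proteins and receptors.

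The members carried the genes that chose them in varied combinations, given here as a description only. Stmn2, a tubulin-binding protein of growing axons, was found in 76 of 105 members, Calb2 in 64, Bhlhe22 in 55, Prdm8 in 54 and Neurod2 in 45. Of the 5 late genes 1 was detected in 12 members, 2 in 29, 3 in 37, 4 in 22 and all 5 in 5. In 5 members Stmn2 was the only late gene found. The late sum ran from 1 to 13 with a median of 5, and the margin over the early sum from 1 to 13 with a median of 3. At the threshold, 20 members had a margin of 1, beside the 26 cells with a margin of 0 and 20 early neuroblasts at -1. No member had a neuroblast sum of 5, while 3 had 6, and 2 cells that met the second condition fell short with a sum of 4.

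Their label was checked against markers of other cells. At this depth the markers of lymphocytes and blood were at 0 in all 105 members. Interneuron markers reached 2 transcripts in 2 members. One member held 21 transcripts of Cajal-Retzius cell markers, genes of an early-born neuron. Of 7 mature granule neuron markers Slc17a7 and Plk5 were at 0, Rbfox3, which comes on earlier, was found in 45 members, and the list reached at most 4 transcripts in a member. Astrocyte and stem cell markers reached 5 transcripts in 27 members, and their summed level was 2072 ± 663 CPM (SD, n = 4 experiments), where CPM is counts scaled to a total of 1000000 per class and experiment, against 18868 ± 9340 CPM in all other cells. Oligodendrocyte precursor markers ran from 83.7 to 434 CPM in members of niche experiments 2 to 4 and stood at 4083 CPM in experiment 5. That level is made of many counts, as 1 count is worth 86.9 CPM there. The other cells of experiment 5 stood at 4392 CPM, so members there were near them in these markers. In experiments 2, 3 and 4 the other cells stood at 6837, 2669 and 1171 CPM. These markers reached 5 transcripts in 2 members, and the highest held 30. Oligodendrocyte markers reached 5 transcripts in 8 members and microglia markers in 1, which held 19. The summed level of oligodendrocyte markers was 138 to 608 CPM in members of experiments 2 to 5 and 2443 CPM in NestinGFP members, against 24949 CPM in the other cells of that library. Markers of pyramidal neurons reached 2 transcripts in 13 members and 5 in 1. Their summed level was higher in members than in other cells of each of experiments 2 to 5. It was 374, 285, 428 and 174 CPM in members against 174, 131, 280 and 118 CPM. In all, 29 of the 105 members held 5 or more transcripts of the markers of one glial, vascular or blood class. The part of these transcripts in the results was tested only by leaving such neuroblasts out, which is given below beside the counts. No doublet caller was run, and no 2 cells of the table were identical.

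Members were found in 17 of the 30 niche libraries that have cells in the table, and their share varied widely between experiments. They numbered 2, 38, 5, 23 and 5 in experiments 1 to 5, 9 in the old library and 23 in the NestinGFP library. The share of cells was 0.531% in experiment 1 (exact binomial 95% interval 0.064 to 1.90), 11.1% in experiment 2 (7.96 to 14.9), 3.94% in experiment 3 (1.29 to 8.95), 16.9% in experiment 4 (11.03 to 24.3) and 3.97% in experiment 5 (1.30 to 9.02). The mean was 7.29% ± 6.61 (SD, n = 5), so the spread between experiments was nearly as large as the mean. The old library held 7.03% (3.27 to 12.9) and the NestinGFP library 7.69% (4.94 to 11.3), both inside the range of the niche experiments. The intervals cover counting error only.

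**Figure D1:**
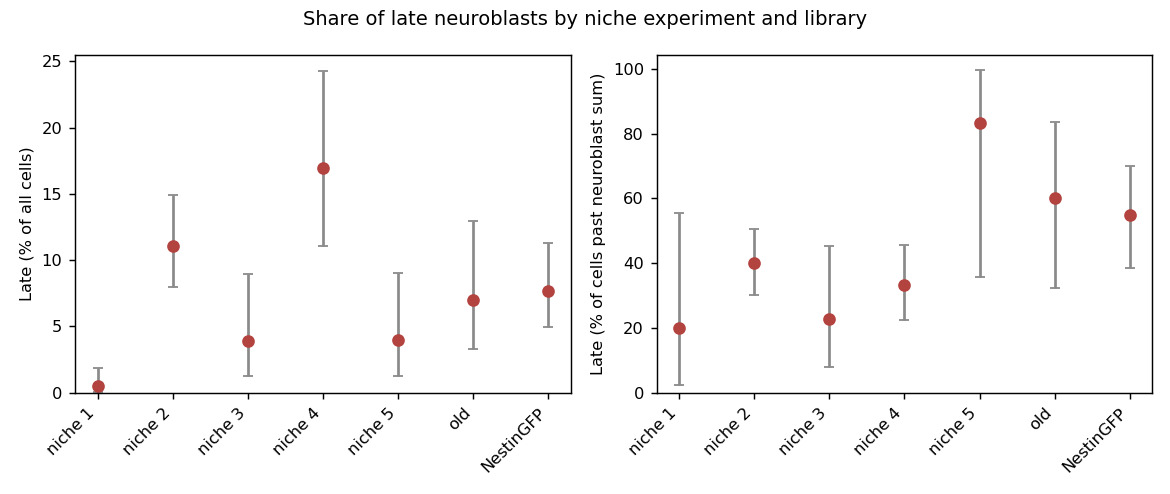
Share of late neuroblasts in each niche experiment and in the old and NestinGFP libraries, as % of all cells (left) and as % of cells past the neuroblast sum (right). Points are shares and bars exact binomial 95% intervals; the left panel runs from 0.531% in experiment 1 to 16.9% in experiment 4.

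Among cells past the neuroblast sum, members made up 20%, 40%, 22.7%, 33.3% and 83.3% in experiments 1 to 5 (mean 39.9% ± 25.6, SD, n = 5). Experiment 5 rests on 6 such cells, with an interval of 35.9 to 99.6. In the NestinGFP library the share was 54.8% (38.7 to 70.2) and in the old library 60% (32.3 to 83.7). With 1 library of each kind no test was made, and age or reporter cannot be told apart from the library.

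At the reduced depth of the filtered table, the reporter transcript eGFP was found in 0 of 23 members of the NestinGFP library (exact 95% interval 0 to 14.8%), in a library sorted for GFP. These members have a median of 6233 transcripts in their full counts, so a transcript can be missed at the reduced depth. It was found in 5 of 13 early neuroblasts of the library (38.5%, 13.9 to 68.4) and in 65 of 276 of all its cells outside the members (23.6%, 18.7 to 29.01). At that depth no cell of the niche or old libraries held the transcript, among them 73 niche members (up to 4.93%). The intervals bound how often the transcript is detected and not the share of cells that carry the reporter. These cells come from 1 library and are not replicates, so no test was made.

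Late neuroblasts were compared with early neuroblasts, their nearest relative, in the 3 niche experiments with at least 5 cells of each class (38 and 49 cells in experiment 2, 5 and 16 in experiment 3, 23 and 40 in experiment 4). Median transcripts per cell were 8145 and 8880, 4663 and 6262, and 14736 and 14187. Of 6619 genes outside the gate, 228 were higher in late neuroblasts (3.44%) and 191 lower (2.89%), together 419 (6.33%), by edgeR's quasi-likelihood test with the experiment as block (adjusted p under 0.05). The classes were told apart by the gate genes of the same cells, so genes that vary together with those were bound to differ, and the tests give the size of the differences. A call does not require the same direction throughout. Scn3a, Cacnb3 and Snap91 passed though higher in only 2 of 3 experiments. Genes of the cell cycle made up the largest group among the lower ones on the lists read here, and genes of axon growth and synapses among the higher ones. The count depends on the fit. It was 26 of 6619 genes without the experiment block (10 higher, 16 lower) and 109 of 6619 with DESeq2 (60 higher, 49 lower). Without experiment 2 it was 128 of 5467 (63 higher, 65 lower). It was 623 of 7391 without experiment 3 (370 higher, 253 lower) and 91 of 5504 without experiment 4 (49 higher, 42 lower). Without neuroblasts that held 5 or more transcripts of another class' markers it was 389 of 6658 (234 higher, 155 lower). With a neuroblast sum of 8 or more it was 186 of 6486 (121 higher, 65 lower). List counts under these settings are to be read beside these. With that sum, 6 of 64 microtubule, 7 of 45 synaptic vesicle and 3 of 25 channel genes were higher on the lists described below. So were 4 of 43 transcription factor, 5 of 22 immediate early and 2 of 37 RNA-binding genes.

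**Figure D2:**
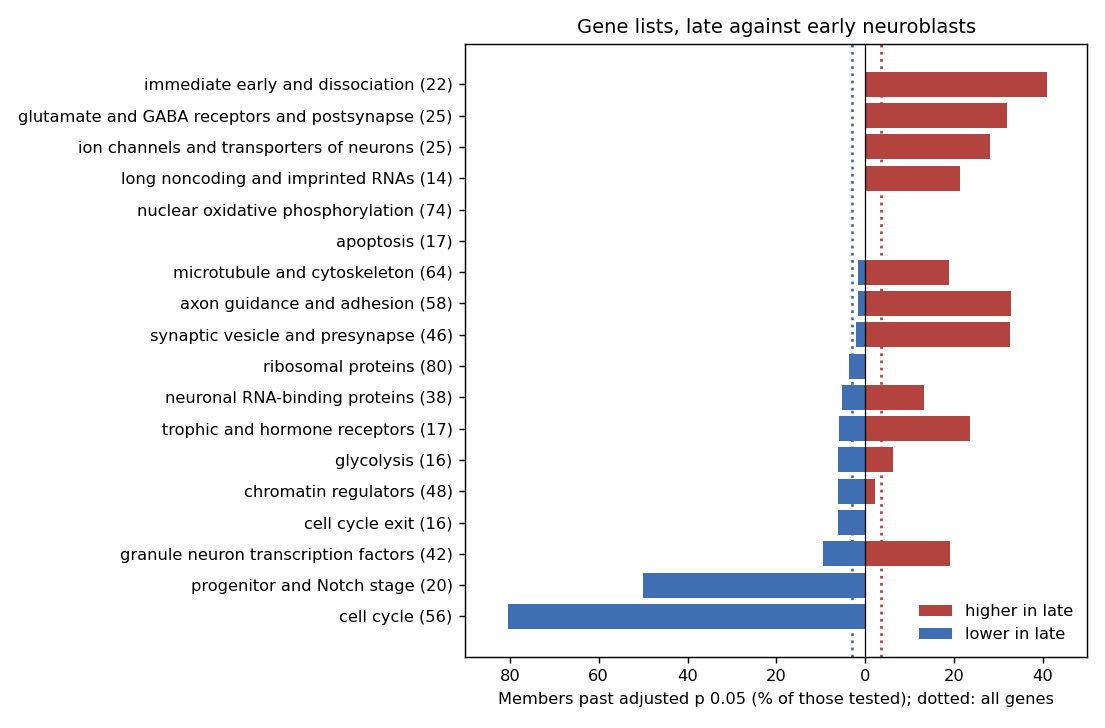
Share of the tested members of each gene list (number tested in brackets) that were higher (right, red) or lower (left, blue) in late than in early neuroblasts at an edgeR adjusted p under 0.05. Dotted lines give the share over all 6619 genes, 3.44% higher and 2.89% lower; the cell cycle list reaches 45 of 56 lower.

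Of 56 cell cycle genes tested, 45 were lower in late neuroblasts and 0 higher, against 2.89% lower over all genes, and their median log2 fold change was -1.62 against -0.03. The gate itself holds Ccnd2, a cyclin, and Eomes, a factor of dividing progenitors, so a lower cell cycle in late neuroblasts is in part what the rule selects. At one depth, 6 of 105 late neuroblasts (5.71%) and 46 of 128 early neuroblasts (35.9%) held at least 3 transcripts over 21 cell cycle genes. The number of genes lower was 48 of 58 without experiment 3, 29 of 60 without experiment 2, 17 of 51 without experiment 4, 27 of 56 with DESeq2 and 10 of 56 without the block. Among cells with a neuroblast sum of 8 or more only 15 of 37 were lower, and the median log2 fold change was -0.67. Without neuroblasts holding markers of another class 37 of 56 were lower.

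Hmgn2, a nucleosome-binding protein abundant in dividing cells (chr4:133964739-133967991), stood at 1032, 489 and 750 CPM in late neuroblasts of experiments 2, 3 and 4 and at 4367, 2843 and 2783 CPM in early neuroblasts. All 3 late values lay below all 3 early values, and the log2 fold change was -2.09 ± 0.16 (± SE here and below, edgeR adjusted p = 1.99e-36). Over all 6619 genes tested, 1089 (16.5%) had classes without overlap, in either direction. Hmgb2, a chromatin protein of proliferating cells (chr8:57511843-57515999), was at 28.3, 40.7 and 90.1 CPM against 551, 584 and 438 CPM (-3.11 ± 0.28, edgeR adjusted p = 1.63e-25), again with no overlap. Top2a, the topoisomerase that untangles DNA before mitosis (chr11:98992947-99024199), stood at 3.15, 0 and 28.97 CPM against 55.8, 235 and 243 CPM (-3.32 ± 0.46, edgeR adjusted p = 1.21e-10). The histone variant gene H2afz had a log2 fold change of -1.45 ± 0.18 (429 ± 124 against 1140 ± 156 CPM, SD, n = 3, edgeR adjusted p = 3.3e-13). Cdca3, which triggers entry into mitosis, had 3 counts in late and 118 in early neuroblasts, a ratio of 0.044 (counting interval 0.00894 to 0.132). The kinase subunit gene Cks2, the cyclin gene Ccna2, the centromere histone gene Cenpa and the nucleotide enzyme gene Rrm2 lay between -3.05 and -2.72 on the log2 scale. Of 16 genes of cell cycle exit 0 were higher and 1 lower, against 3.44% and 2.89% over all genes. The lower gene was Zfp36l1, which missed the threshold with DESeq2.

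The promoters of cell cycle genes are shown because 45 of these genes fell together. In textbook accounts many such promoters hold a CCAAT box, bound by NF-Y, and a cell cycle homology region near the start of transcription. RefSeq promoters of mm10 (GRCm38.p6), from 250 bases before to 50 after each start, were searched on both strands for CCAAT and for TTTGAA. The 3 below belong to genes of the leading 12 that were lower and were chosen after the search, as those with the most CCAAT matches. Capitals mark CCAAT or its complement ATTGG, and TTTGAA or its complement TTCAAA. The sequences run 5′ to 3′ on the strand of the gene.
Top2a (chr11:99024140-99024439, minus strand): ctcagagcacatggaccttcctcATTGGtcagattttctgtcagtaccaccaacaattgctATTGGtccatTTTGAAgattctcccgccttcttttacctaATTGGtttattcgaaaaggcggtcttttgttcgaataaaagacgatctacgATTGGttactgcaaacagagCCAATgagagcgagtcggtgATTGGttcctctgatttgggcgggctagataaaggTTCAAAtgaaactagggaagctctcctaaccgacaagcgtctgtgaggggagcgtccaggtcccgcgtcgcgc
Hmgb2 (chr8:57511593-57511892, plus strand): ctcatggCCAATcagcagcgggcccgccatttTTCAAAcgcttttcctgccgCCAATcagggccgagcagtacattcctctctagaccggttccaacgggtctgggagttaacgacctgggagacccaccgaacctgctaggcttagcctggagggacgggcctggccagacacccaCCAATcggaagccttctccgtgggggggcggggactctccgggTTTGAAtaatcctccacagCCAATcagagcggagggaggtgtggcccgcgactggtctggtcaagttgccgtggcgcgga
Cks2 (chr13:51644982-51645281, plus strand): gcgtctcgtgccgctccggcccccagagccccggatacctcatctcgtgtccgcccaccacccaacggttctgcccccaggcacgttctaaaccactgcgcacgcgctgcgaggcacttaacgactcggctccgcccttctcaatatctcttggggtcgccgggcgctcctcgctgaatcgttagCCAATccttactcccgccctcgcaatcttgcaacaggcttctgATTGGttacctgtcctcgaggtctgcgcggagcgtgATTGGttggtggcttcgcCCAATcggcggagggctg
The Top2a window held 6 CCAAT and 2 TTTGAA matches, that of Hmgb2 4 and 2, and that of Cks2 4 and 0. Other windows of the leading 12 held fewer CCAAT matches, 3 for Cdca3, 2 for Cenpa, 1 for Rrm2 and 0 for Cdca7, Notch1 and Mt2.

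Over the genes of the cell cycle list that were lower, 36 of which have an entry with 41 promoters in all, 80.5% of promoters held CCAAT (33 of 41) and 16 of 41 TTTGAA. Over the promoters of all genes tested with an entry (6536 promoters of 5026 genes) the shares were 37.4% and 10.8%, and over all 32851 RefSeq promoters given they were 37.4% and 17.9%. Promoters of the genes higher in late neuroblasts (251 promoters of 159 genes) held them in 27.9% and 8.4%. The letters CAGATG, an E-box that factors of the Neurod family can bind, were in 34 of 251 promoters of the higher genes (13.5%), in 24 of 179 promoters of the lower genes (13.4%) and in 684 of 6536 promoters of all genes tested. The letters were thus as frequent before the lower genes as before the higher ones. CAGCTG was in 18.7%, 13.4% and 14.3% of these sets. A match of letters is a description and no sign of binding.

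Progenitor and Notch stage genes were lower in late neuroblasts in 10 of 20 cases and higher in 0, against 2.89% lower over all genes. The receptor gene Notch1 (chr2:26457902-26503822) stood at 22.02, 0 and 9.66 CPM against 112, 159 and 130 CPM (-2.99 ± 0.48, edgeR adjusted p = 5.03e-08). Sox1, a transcription factor of neural progenitors, was at 24.5 ± 22.8 CPM (SD, n = 3) against 194 ± 61.6 CPM (-2.40 ± 0.36, edgeR adjusted p = 4.68e-09). Fabp7, a fatty acid-binding protein of radial glia, was lower by -1.96 ± 0.35 and the growth factor gene Mdk (midkine) by -1.30 ± 0.18. With DESeq2 4 of the 20 were lower, and without the block 1. The metallothionein gene Mt2 was among the 12 leading genes lower in late neuroblasts (-2.90 ± 0.39).

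Axon guidance and adhesion genes were higher in 19 of 58 cases and lower in 1, against 3.44% higher over all genes. Islr2 (also Linx), a membrane protein of axon growth (chr9:58196297-58204319), stood at 352, 285 and 296 CPM in late and 65.1, 129 and 51.1 CPM in early neuroblasts. The classes did not overlap (2.24 ± 0.28, edgeR adjusted p = 4.33e-13). Cntn2, an adhesion molecule of growing axons (chr1:132509425-132543251), was at 239, 204 and 177 CPM against 55.8, 45.5 and 15.9 CPM (2.55 ± 0.34, edgeR adjusted p = 2.19e-11). Chl1, of the L1 adhesion family, was at 695, 285 and 1110 CPM against 156, 227 and 303 CPM (1.79 ± 0.20, edgeR adjusted p = 6.76e-16). Here the lowest late value lay below the highest early one, though late was the higher in each of the 3 experiments. The adhesion gene Cadm2 (chr16:66655416-67620917) was at 125.8, 163 and 86.9 CPM against 4.65, 15.2 and 24.6 CPM (2.81 ± 0.47). The 1 lower gene was Robo2, a receptor that repels axons from Slit proteins (-2.96, named after its values were seen). The axon guidance count was 9 higher with DESeq2, 0 without the block, 10 without experiment 2 and 9 without experiment 4.

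**Figure D3:**
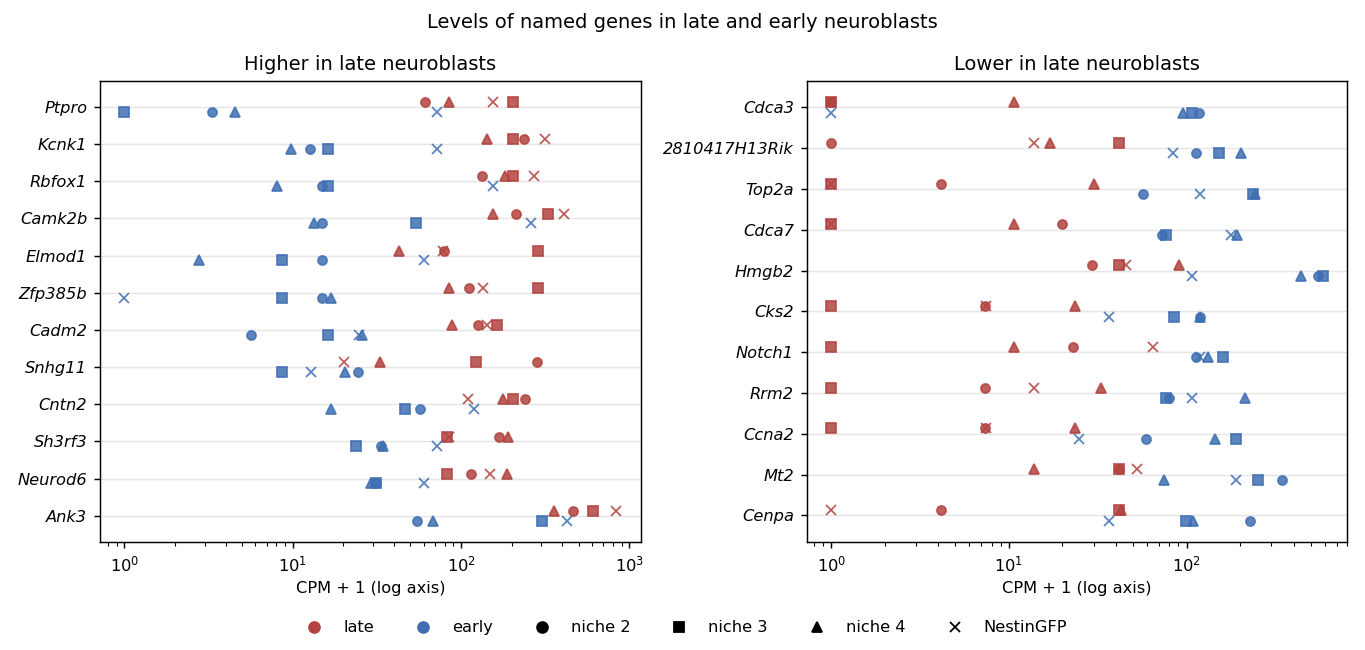
Levels in CPM + 1 (log axis) of the 12 named genes with the largest rise (left) and 11 of the 12 named genes with the largest fall (right) in late against early neuroblasts, in niche experiments 2, 3 and 4 and in the NestinGFP library, which was not in the fit. Red marks late and blue early neuroblasts. In the niche experiments the red and blue points of a gene lie apart, as they do for 16.5% of all 6619 genes tested. In the NestinGFP library Cntn2 is at 109 CPM in late and 118 CPM in early neuroblasts.

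Microtubule and cytoskeleton genes were higher in 12 of 64 cases, against 3.44% over all genes, and lower in 1, against 2.89%. The lower one was the alpha-tubulin gene Tuba1b (-0.88, named after its values were seen). Basp1, a membrane protein of growth cones (chr15:25363277-25413764), stood at 1736, 2036 and 2218 CPM against 763, 773 and 1166 CPM (1.08 ± 0.16, edgeR adjusted p = 6.71e-10). Mapt, which encodes the axonal microtubule protein tau, was at 560 ± 204 CPM (SD, n = 3) against 182 ± 47.04 CPM (1.68 ± 0.21, edgeR adjusted p = 1.61e-12). Stmn4, of the family of Stmn2, was higher by 1.84 ± 0.28, and Map1b, a microtubule protein of growing neurites, by 1.04 ± 0.18. Ank3 encodes ankyrin G, the scaffold of the axon initial segment (chr10:69533486-70027436). It stood at 462, 611 and 354 CPM against 53.5, 303 and 66.9 CPM (2.26 ± 0.25, edgeR adjusted p = 1.84e-16), and its early value in experiment 3 stood near the late values. The list had 4 genes higher with DESeq2, 0 without the block, 7 without experiment 2 and 4 without experiment 4.

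Genes of receptors and of the postsynapse were higher in part. Of 25 tested genes of glutamate and GABA receptors and the postsynapse, 8 were higher, against 3.44% over all genes, and 0 lower. Camk2b, a calcium-dependent kinase of the postsynapse (chr11:5969629-6066357), stood at 211, 326 and 154 CPM against 13.96, 53.1 and 12.3 CPM, with no overlap (3.42 ± 0.39, edgeR adjusted p = 2.96e-15). Gria2, the AMPA receptor subunit that limits calcium entry (chr3:80681450-80804227), was at 1425, 3095 and 2008 CPM against 586, 804 and 650 CPM (1.53 ± 0.16, edgeR adjusted p = 4.42e-19). Grin2b, the NMDA receptor subunit of young neurons, was at 119 ± 33.8 against 35.4 ± 21.9 CPM (2.06 ± 0.40, SD, n = 3). With DESeq2 4 genes of this list were higher, without the block 2, and 3 each without experiment 2 and without experiment 4.

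Of 46 genes of the synaptic vesicle and presynapse, 15 were higher, against 3.44% over all genes, and 1 lower, against 2.89%. The synapsin genes, whose proteins hold vesicles in reserve, had opposite signs. Syn3 was at 34.6, 163 and 48.3 CPM against 0, 22.8 and 1.76 CPM (3.87 ± 0.78), while Syn2 was at 173, 40.7 and 203 CPM against 351, 463 and 313 CPM (-0.99 ± 0.24, edgeR adjusted p = 0.00131). Syn2 missed the threshold with DESeq2. The list had 3 higher with DESeq2, 0 without the block, 3 without experiment 2 and 1 without experiment 4.

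Ion channels and transporters of neurons were higher in 7 of 25 cases, against 3.44% over all genes, and lower in 0. The potassium leak channel gene Kcnk1 (chr8:125993655-126030685) had one of the largest rises, from 11.6, 15.2 and 8.80 CPM in early to 236, 204 and 142 CPM in late neuroblasts (4.05 ± 0.44, edgeR adjusted p = 1.13e-16). The receptor phosphatase gene Ptpro (chr6:137252299-137464634) had the largest fitted rise among the named genes. It stood at 59.8, 204 and 83.7 CPM in late neuroblasts and had 3 counts in all in early neuroblasts, a ratio of 28.8 (counting interval 9.31 to 144). With DESeq2 2 channel genes were higher, and 1 each without the block, without experiment 2 and without experiment 4.

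Among receptors for trophic factors and hormones 4 of 17 genes were higher, against 3.44% over all genes, and 1 lower, against 2.89%. The higher ones were the cannabinoid receptor gene Cnr1 (251 ± 117 against 81.3 ± 44.5 CPM, SD, n = 3), Fgfr1 of fibroblast growth factors (489 ± 58.7 against 178 ± 85.1 CPM), the neurotrophin-3 receptor gene Ntrk3 (83.9 ± 59.1 against 17.3 ± 15.02 CPM) and Fgf13, a sodium channel partner that is no receptor (71.5 ± 44.7 against 6.43 ± 1.56 CPM). The lower gene was Ptprz1, a receptor phosphatase of progenitors and glia (-1.06, named after its values were seen). Ntrk3 missed the threshold with DESeq2, and without the block 0 of the 17 passed it.

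Granule neuron transcription factors outside the gate went both ways, 8 of 42 higher and 4 lower against 3.44% and 2.89% over all genes, with a median log2 fold change of 0.03. Neurod6, a relative of Neurod2 (chr6:55677818-55681263), stood at 113, 81.4 and 187 CPM against 30.3, 30.3 and 28.2 CPM (2.26 ± 0.39, edgeR adjusted p = 8.66e-07). Neurod6 is also a marker of pyramidal neurons, whose summed markers were 374, 285 and 428 CPM in late and 365, 250 and 414 CPM in early neuroblasts of experiments 2, 3 and 4. Id2, an inhibitor of helix-loop-helix factors, was at 909, 977 and 853 CPM against 491, 440 and 336 CPM (1.09 ± 0.18, edgeR adjusted p = 1.88e-07). Myt1l and Nhlh2, factors of young neurons, were higher by 1.52 ± 0.29 and 1.56 ± 0.32, and both missed the threshold with DESeq2. Prox1, the defining factor of granule neurons, was named after its values were seen. It stood at 130 CPM in late and 59.7 CPM in early neuroblasts on average over 3 experiments (1.08 on the log2 scale, edgeR adjusted p = 0.048). The 4 lower factors, also named after their values were seen, were Tox3 (-1.74), Neurod4 (-1.49), Myt1 (-0.85) and Lhx2 (-0.69). The list had 2 genes higher and 0 lower with DESeq2, 1 and 0 without the block, and 2 and 1 both without experiment 2 and without experiment 4.

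Of 38 RNA-binding proteins of neurons 5 were higher, against 3.44% over all genes, and 2 lower, a share near the 2.89% over all genes. Rbfox1, a splicing factor of neurons (chr16:5884793-7412480), was at 132, 204 and 180 CPM against 13.96, 15.2 and 7.04 CPM (3.85 ± 0.45, edgeR adjusted p = 1.26e-14). The late values of Rbfox1 were far above the early ones in each experiment. Celf4, which binds mRNAs of synaptic proteins, was at 254 ± 87.2 against 67.7 ± 48.2 CPM (1.89 ± 0.28), while Elavl4, of the Hu family, was at 332 ± 116 against 818 ± 91.6 CPM (-1.18 ± 0.19, SD, n = 3, edgeR adjusted p = 4.99e-08). The other lower gene was Rbm24 (-2.53, named after its values were seen). With DESeq2 2 were higher and 1 lower, and without the block 1 and 0.

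Immediate early and dissociation response genes were higher in 9 of 22 cases, against 3.44% over all genes, and lower in 0. Fos, which follows stimulation and tissue handling (chr12:85473890-85477274), stood at 1434, 1466 and 2218 CPM against 305, 675 and 1100 CPM (1.43 ± 0.16, edgeR adjusted p = 1.95e-15). Fosb was at 585, 855 and 512 CPM against 144, 152 and 283 CPM, also without overlap. Egr1 was higher by 0.90 ± 0.15 with overlapping classes and missed the threshold with DESeq2, as did Jund. Both classes came from the same numbered experiments, and whether dissociation acts on them unequally was not tested. With DESeq2 2 genes of the list were higher, without the block 0, without experiment 2 3 and without experiment 4 4.

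**Figure D4:**
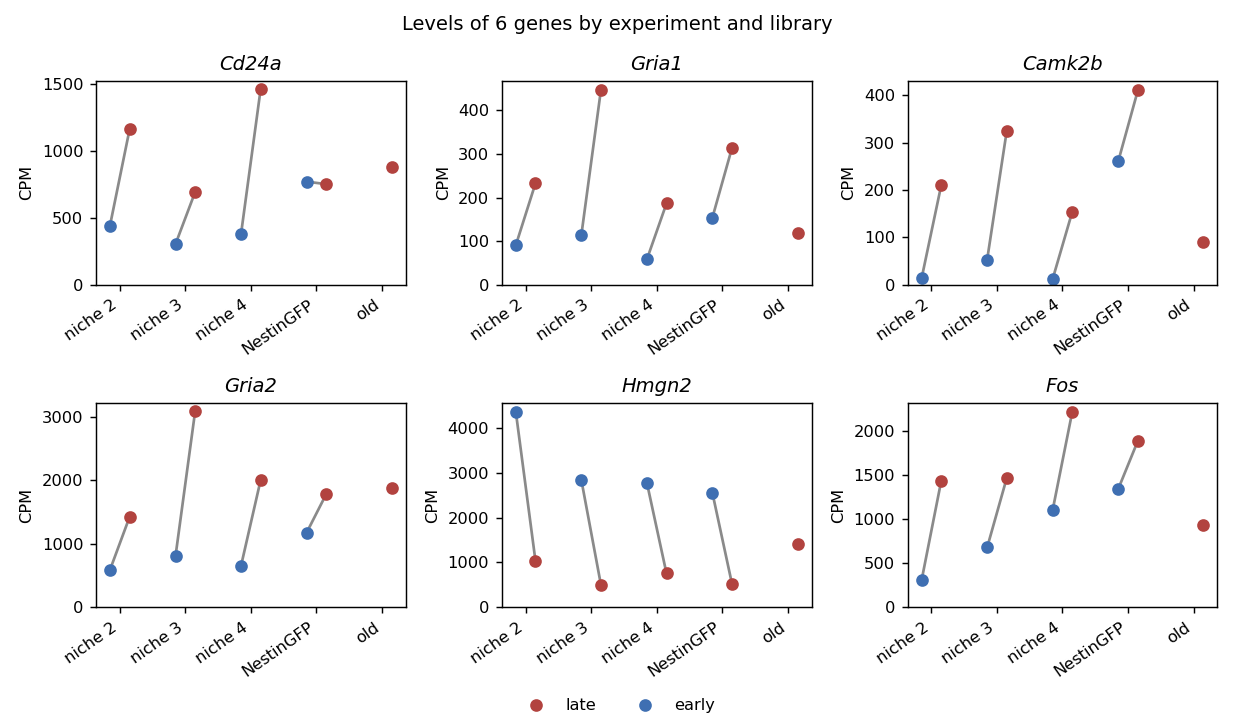
Levels in CPM of 6 genes in early (blue) and late (red) neuroblasts of niche experiments 2, 3 and 4 and the NestinGFP library, and in late neuroblasts of the old library, whose 3 early neuroblasts are not drawn. Lines join the classes of one experiment or library; Hmgn2 falls in all 4, while Cd24a rises in the 3 niche experiments and is at 769 CPM in early and 750 CPM in late neuroblasts of the NestinGFP library.

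The remaining lists are read against 3.44% higher and 2.89% lower over all genes. None of 74 nuclear oxidative phosphorylation genes and none of 17 apoptosis genes passed the edgeR test. Chromatin regulators had 1 of 48 genes higher and 3 lower, among the latter Ezh2 of the Polycomb complex, which missed the threshold with DESeq2. Ribosomal proteins had 3 of 80 lower (Rpl23, Rpl35a and Rps6), all 3 lost with DESeq2. Glycolysis had 1 of 16 higher, Pfkp, and 1 lower, Gapdh, and both missed it with DESeq2. Long noncoding and imprinted RNAs had 3 of 14 higher, among them Snhg11, which stood at 283, 122 and 32.2 CPM against 23.3, 7.58 and 19.4 CPM and so was highest in experiment 2. With a neuroblast sum of 8 or more 0 of 12 were higher.

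The transcripts of both sort antigens were present in members. Cd24a stood at 1161, 692 and 1461 CPM in late neuroblasts of experiments 2, 3 and 4, and at 442, 303 and 379 CPM in early neuroblasts, without overlap (1.58 ± 0.18, edgeR adjusted p = 8.17e-16). At one depth 70.5% of members held Cd24a, against 32.8% of early neuroblasts, 4.75% of astrocyte and stem cells and 3.95% of microglia. Gria1 was at 233, 448 and 187 CPM against 90.7, 114 and 58.1 CPM (1.56 ± 0.28, edgeR adjusted p = 3.7e-06).

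**Figure D5:**
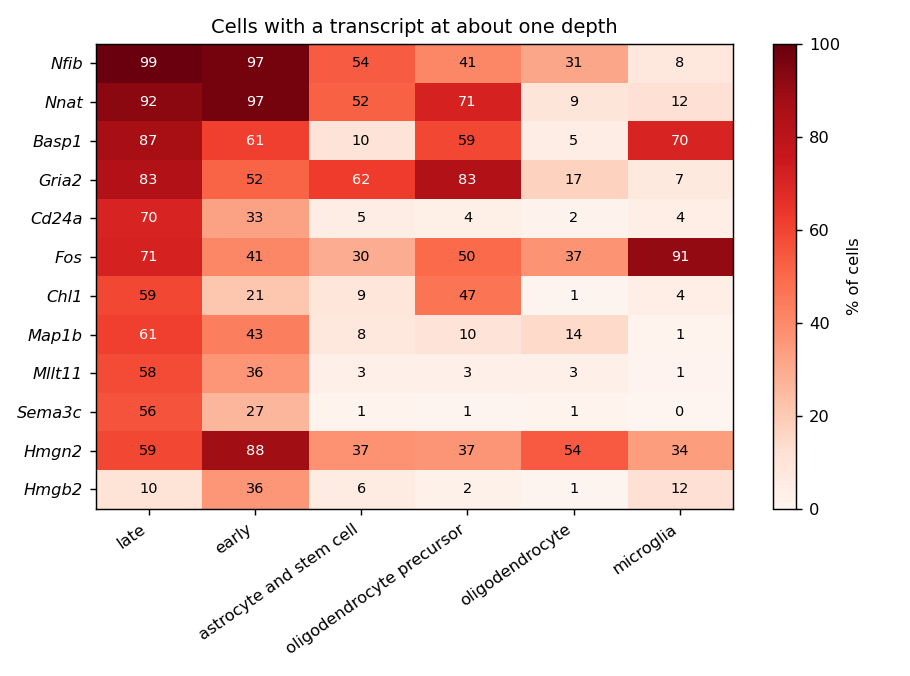
Percent of cells with at least 1 transcript of 12 genes in the table where all cells have about one depth, for late and early neuroblasts and for other cells grouped by the class whose markers they held most. Cd24a was found in 70.5% of late and 32.8% of early neuroblasts, and Sema3c in 56.2% and 26.6%, while Cd24a was in at most 4.75% and Sema3c in at most 1.40% of the 4 other classes drawn.

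The NestinGFP library was outside the fit and holds 23 late and 13 early neuroblasts. They were told apart by the same gate genes, so a shared sign is in part what the rule selects. Of the 226 genes higher in the niche experiments with at least 5 counts there, 181 were also higher in its late neuroblasts. Of the 159 lower ones with at least 5 counts, 132 were lower. The median log2 ratio there was 0.51 for these higher genes and -0.69 for these lower ones. Ptpro, with the largest rise among the named genes (4.80), had 0.96 there, while Cdca7 (-3.12) had -3.55. Among genes that passed no threshold in the niche, 1578 of 2757 with a positive and 1673 of 3082 with a negative fold change had the same sign there. Of the 12 leading genes in each direction, 11 and 11 had the same sign, with no minimum of counts. Cdca3, the lower gene left out of these, had no count there. Some with the same sign rested on few counts, such as Cenpa (0 late, 3 early) and Ccna2 (1 late, 2 early). Hmgn2 stood at 513 CPM in late and 2557 CPM in early neuroblasts, Top2a at 0 and 118 CPM and Kcnk1 at 314 and 71.02 CPM. Camk2b was at 410 and 260 CPM, an early level above those of the 3 niche experiments. One library allows no test, and 1 count is worth 6.41 CPM in its late and 11.8 CPM in its early neuroblasts.

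Members of the old library, 9 cells in all, gave levels that can be set beside these with no test. Hmgn2 stood at 1418 CPM, above the late neuroblasts of all 3 niche experiments (489 to 1032 CPM) and below their early neuroblasts. Top2a, Ccna2, Cdca3, Cdca7 and Rrm2 had no count. Cks2, however, was at 74.7 CPM, above the niche late values of 0 to 22.5 CPM, while Hmgb2 (59.7 CPM) and Cenpa (14.9 CPM) lay inside the niche late range. Gria2 (1881 CPM), Basp1 (2090 CPM) and Cd24a (881 CPM) lay inside the range of niche late neuroblasts. Camk2b (89.6 CPM), Rbfox1 (74.7 CPM), Kcnk1 (59.7 CPM) and Islr2 (134 CPM) lay below that range and above the early neuroblasts of the niche. One count is worth 14.9 CPM here.

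Late neuroblasts were then set against all other cells of niche experiments 2 to 5, mostly glia and microglia but with early neuroblasts among them. Early neuroblasts were 49 of 305, 16 of 122, 40 of 113 and 1 of 121 of these other cells in experiments 2, 3, 4 and 5. The make-up of the reference thus differed between experiments, which bears on each fold change here. Of 7257 genes 445 were higher (6.13%) and 1023 lower (14.1%), together 1468 (20.2%), by the same edgeR test. The classes were set apart by the gate, so this too describes how far members lie from the rest. With DESeq2 1115 of 7240 genes were called, 212 higher and 903 lower. The median log2 fold change over all genes was then -0.27 against -0.07. With the size factors of DESeq2 in edgeR it was -0.21. Without experiment 2 the count was 661 and without experiment 4 it was 937.

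Of 59 axon guidance and adhesion genes 28 were higher and 9 lower, against 6.13% and 14.1% over all genes. Higher were 14 without experiment 2, 15 without experiment 4 and 17 without the block, and lower were 3 without experiment 2. Islr2 stood at 352, 285, 296 and 174 CPM in members of experiments 2 to 5 and at 29.6, 31.1, 32.9 and 5.25 CPM in other cells (3.30 ± 0.34, edgeR adjusted p = 4.74e-20). Sema3c, a secreted guidance cue, was at 739, 570, 840 and 261 CPM against 98.7, 31.1, 179 and 42 CPM (2.68 ± 0.31, edgeR adjusted p = 2.45e-16). Its lowest member value was above the highest of the others. Members and other cells lay apart, in either direction, for 1332 of 7257 genes (18.4%). Plxna4, a semaphorin receptor, was at 249 CPM on average against 34.04 CPM (2.57 ± 0.34). Hecw1, a ubiquitin ligase of neurons, was at 264 ± 16.4 CPM (SD, n = 4) against 26.97 ± 14.6 CPM. Kcnk1 was at 189 against 111 CPM (1.02 ± 0.31, edgeR adjusted p = 0.0065) and was higher in 3 of 4 experiments. It missed the threshold with DESeq2, without the block and without experiment 2 or 4.

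Granule neuron transcription factors were higher in 21 of 44 cases and lower in 6, against 6.13% and 14.1% over all genes. They were 11 and 3 without experiment 2 and 12 and 4 without the block. Nfib, a nuclear factor I gene of neural development, stood at 5853, 6271, 5951 and 4343 CPM against 1399.6, 1266, 2546 and 409.6 CPM (1.89 ± 0.31, edgeR adjusted p = 1.53e-08). The synaptic vesicle list had 19 of 43 genes higher and 2 lower against the same shares, with the vesicle protein gene Rab3a at 299 CPM against 60.6 CPM. Syp, encoding synaptophysin, was at 113 CPM against 30.3 CPM on average. It was higher in 3 of 4 experiments, and in experiment 5 it was at 0 CPM in members against 15.8 CPM. Of this list 7 were higher without experiment 2, 6 without experiment 4, 11 with DESeq2 and 12 without the block. Microtubule genes were higher in 22 of 64 cases and lower in 6, among them Mllt11 (741 against 89.3 CPM, 2.57 ± 0.29) and Crmp1, which relays semaphorin signals (585 against 147 CPM, 1.74 ± 0.30). This count was 12 without experiment 2, 11 without experiment 4 and 12 without the block. On the cell cycle exit list 1 gene of 18 was higher, a share near the 6.13% over all genes. This was Cdkn1b, an inhibitor of cyclin-dependent kinases (0.88 ± 0.29, edgeR adjusted p = 0.0143), and it missed the threshold with DESeq2 and without the block. On that list 5 of the 18 genes were lower, against 14.1% over all genes.

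Of 18 glycolysis genes 10 were lower, against 14.1% over all genes, and 0 higher, with Aldoc, an aldolase of astrocytes, at 123, 81.4, 200 and 174 CPM against 1104, 2441, 928 and 3074 CPM (-3.30 ± 0.35, edgeR adjusted p = 5.03e-19). This count was 6 without experiment 2 as without experiment 4, and 5 without the block. Progenitor and Notch stage genes were lower in 15 of 25 cases and higher in 1, Elavl3 (1.43, named after its values were seen), and lower in 8 without experiment 2 and 9 without the block. Immediate early and dissociation genes were lower in 14 of 27 cases and higher in 0. The stress factor Atf3 was at 28.3 CPM against 423 CPM on average (-3.72 ± 0.43). Without experiment 5, 13 of 28 were lower and 2 higher, and without the block 9 were lower. Genes with the largest falls included markers of glia and microglia, such as P2ry12 (8 counts in members against 2475 in other cells). Neither of the oxidative phosphorylation (75) and ribosomal (78) lists had a gene past the edgeR test.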

How the data were processed

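Per the labels, live hippocampal cells were sorted singly and sequenced by SORT-seq. The submitters' processing notes name the aligner BWA (0.6.2-r126) and the build mm10. The deposited libraries hold estimated counts for each gene in each well. Their steps are those of a correction for UMI saturation by the authors, and whole UMI numbers could be recovered for at least 99.3% of the values of a library. The deposited filtered table holds whole numbers plus 0.1, a score here, and served to choose cells and to give shares of cells at one depth. The sources used here name no counting tool.

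Counts of the members' wells were summed per experiment and class, without spike-ins and mitochondrial genes, rounded and tested with edgeR 4.0.16 in R 4.3.3 by its quasi-likelihood test, after TMM scaling and the filter filterByExpr; genes were called at a Benjamini-Hochberg value under 0.05. The SE was taken from the fold change and F. The 15 gate genes were left out of the tests. The members and gene lists were chosen with earlier results of these data known. Experiment is a block because the labels give the libraries of one experiment the same number; they name no sort or day for it. Deviations from class means correlated by 0.419 to 0.604 between late and early neuroblasts of one experiment and by 0.216 to 0.528 against all other cells. Totals of members were 318202, 24669, 311362 and 11517 transcripts in experiments 2 to 5.

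Named are, in each comparison, up to 12 genes per direction with the largest change among those past the threshold, at a mean of at least 100 CPM in the higher class and with one direction in every experiment. Up to 4 members of each list with the smallest p are named too, with Gria1 and Cd24a. Some genes that the rule names are not reported here. The alternatives tried were other tools, scalings, filters, cell minimums and gates, no block, and leaving out each experiment. The fits were tested on simulated data.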

Additional observations from a re-analysis of the deposited data

Results flagged for a closer look

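Over 66 sets of values across experiments, 6 held a value far from the others. The cutoff used gives about 1 in 20 by chance for normally distributed values. The CPM here hold zeros and come from unequal depths, so 6 of 66 cannot be set against that rate. In members, Nanos1 was at 782 CPM in 1 experiment against a median of 113 CPM in the others, Ccnd1 at 261 against 3.22 CPM and Zfp36l1 at 608 against 19.3 CPM. All 3 high values are those of experiment 5, where 1 count is worth 86.9 CPM. Kif5c was low there, at 174 against 489 CPM. Nr3c1 was at 81.4 against 6.29 CPM in experiment 3, and Top2a at 28.97 CPM in experiment 4 against a median of 0.

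For 7 named genes, late against early neuroblasts differed one way in each of the 3 niche experiments and the other way in the NestinGFP library. The log2 ratios there were small, -0.10 for Cntn2, -0.10 for Egr1, -0.13 for Actl6b, -0.10 for Map1b, -0.04 for Cd24a, -0.12 for Celf4 and -0.05 for Ntrk3. The difference was not tested.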

How the results depend on the processing

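The 419 genes that differed between late and early neuroblasts were 26 without the experiment block (no replicate block), 109 with DESeq2, 186 with a neuroblast sum of 8 or more and 32 with the numbers of the filtered table (881 genes tested). Leaving out 1 experiment gave 91 to 623. All 26 and all 109 were among the 419. The 1468 genes against all other cells were 2747 with no filter, 2213 with at least 10 cells, 2384 without neuroblasts holding markers of another class, 538 with the numbers of the filtered table (2635 genes tested), 993 with no replicate block and 661 to 1856 with 1 experiment left out. The mean share of cells was 7.29%, 6.92% with a neuroblast sum of 8 or more and 4.14% with a margin of 3. Among cells past the neuroblast sum it was 39.9%, 44.2% and 19.6%. The mean shares stayed within 1 SD under each alternative, but the SDs are wide (6.61 and 25.6), so this says little about stability. Of the 72 genes named in the comparison with early neuroblasts, 50 kept their call with DESeq2 and 14 without the block, and none changed sign where tested. The cause of these changes was not tested. Experiments 3 and 5 hold 5 members each, so single counts set levels there.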
